A study of Rattus norvegicus with 62 samples.

Results

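The genes described here are 48 markers of endothelial cells, the cells that line blood vessels, and genes of angiogenesis, the growth of new vessels from existing ones. They were chosen by name, but with earlier results of these data known, so counts of their calls are not independent evidence. A probe set (a group of short probes for 1 transcript) was a member where the platform annotation gave it exactly 1 gene, on the list. Of the 48 genes, 44 had such a probe set (74 probe sets in all), among 14217 genes named that way on the whole array. Robo4, Cdh5, Tcf15 and Cd34 had none and have no value here, and no probe set named a member together with another gene. Plvap, Angpt1 and Sele had only dim probe sets, below the signal filter of 5.03 (log2), which left 41 genes and 63 probe sets, among 10557 named genes kept. The dim genes were not tested. Averaged over all arrays they lay at 4.95 for Plvap, 4.95 for Angpt1 and 3.80 for Sele.

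The hearts came from male Wistar rats that received rosiglitazone, a thiazolidinedione drug that activates the nuclear receptor PPARgamma, or vehicle, once daily for 14 days. Cardiac muscle was sampled 6, 24, 168 or 336 h after the final dose. The 80 mg/kg groups held 5, 5, 6 and 5 arrays at these times, the 10 mg/kg groups 5, 5, 5 and 6, and the vehicle groups 4, 6, 5 and 5, 62 in all. The age of the rats and the makeup of the vehicle were not given in the sources used here, and nothing in the labels ties each sample to a separate rat. A p-value here therefore reflects how far samples of a group scattered, which may be technical. Levels are log2 of the deposited signal after quantile normalization, so each value is relative to the other probe sets of its array, and no level is compared between genes. In whole muscle, fewer cells of a type and less RNA per cell cannot be told apart.

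Endothelial cells of the heart form a dense capillary bed that passes fatty acids to muscle cells. Vascular endothelial growth factors bind the receptor Kdr to drive growth and survival of these cells, angiopoietins act through Tek with Tie1 as its partner, and Notch signalling chooses between tip and stalk cells of a sprout. Transcription factors of the SoxF group (Sox7, Sox17 and Sox18), with Erg and Fli1, keep endothelial identity, and in mouse Meox2 and Tcf15 together drive fatty acid uptake genes in heart capillaries. The question behind the gene list is whether capillary endothelium differs in amount after the drug or differs only in its lipid genes.

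Arrays differed in several ways that touch the results. The median deposited signal of an array lay anywhere between 31.1 and 86.9, which is a 2.79-fold range. Myl7, the atrial myosin light chain, was at or above 11.2 in 9 arrays and at or below 9.32 in the other arrays: 2 of 5 arrays at 80 mg/kg, 3 of 5 at 10 mg/kg and 1 of 4 with vehicle at 6 h, and 3 of 5 at 80 mg/kg with none in the other groups at 24 h. The summed signal of 4 atrial markers was 1370 to 24618 at 80 mg/kg and 1386 to 2541 with vehicle at 24 h. The 3′ to 5′ difference of actin controls, a measure of RNA quality, was over 1.5 in 3 arrays, all vehicle at 6 or 24 h. For hexokinase it was 1.87 to 6.08 with vehicle and 1.49 to 2.59 at 80 mg/kg at 24 h. Of 3 clusters of arrays, described further on, 1 held 5 of 6 vehicle arrays and 1 of 5 at 80 mg/kg at 24 h. Dose was thus unevenly spread over array states at 24 h. Last, 1 array labelled 10 mg/kg at 6 h (replicate 5) had Rbp7, the drug-responsive gene described further on, at 7.43, against 10.34 to 11.12 in the other arrays of its group and 7.44 to 8.42 with vehicle. No member was called at 10 mg/kg with or without that array.

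The 250 bases before the start of Kdr and Meox2, the members with the lowest adjusted p in the mean over the 4 times, are shown as the sequence next to the genes that rose. They are RefSeq sequences of rat build GRCr8, Kdr at chr14:32571813-32572062 and Meox2 at chr6:59583775-59584024, both on the plus strand and written 5′ to 3′. Capitals mark any match, on either strand, to AGGTCA (the nuclear receptor half-site that PPARgamma can bind), CCGGAA (the core of ETS factor sites, the family of Erg and Fli1), ACAAAG (a SOX core) or GGGCGG (a GC box).
Kdr: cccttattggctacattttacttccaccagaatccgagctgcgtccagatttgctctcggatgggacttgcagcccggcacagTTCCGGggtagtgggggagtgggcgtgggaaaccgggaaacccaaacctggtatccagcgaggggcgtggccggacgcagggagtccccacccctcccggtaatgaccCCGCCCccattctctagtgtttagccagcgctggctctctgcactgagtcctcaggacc
Meox2: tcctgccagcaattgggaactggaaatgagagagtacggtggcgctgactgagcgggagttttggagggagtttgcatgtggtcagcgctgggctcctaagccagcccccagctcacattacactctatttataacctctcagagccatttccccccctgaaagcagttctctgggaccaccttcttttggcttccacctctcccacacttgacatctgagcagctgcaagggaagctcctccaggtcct
The Kdr window held 1 ETS core, starting 167 bases before the gene start, and 1 GC box, starting 59 bases before it, both on the minus strand and not overlapping. The Meox2 window held none of the 4 motifs. Among 33469 promoter windows of that length in the table, 14.1% held AGGTCA, 12.6% CCGGAA, 16.3% ACAAAG and 30.5% GGGCGG. Promoters were found for 28 of the 48 members, of which 3 (Emcn, Robo4 and Vegfb) held AGGTCA, 2 (Kdr and Icam1) CCGGAA, 5 ACAAAG and 15 GGGCGG. These matches describe the letters alone.

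At 80 mg/kg, 4 members were called in at least 1 comparison with vehicle, with adjusted p under 0.05 by limma with Benjamini-Hochberg adjustment over all 18625 probe sets, and all 4 were higher: Kdr at 336 h, Sox7 at 6 h, and Meox2, Kdr and Sox17 in the mean of the differences at the 4 times. No member was called lower in the main fit, on the quantile scale. With array weights on the same scale, limma called Cav1 lower at 336 h (adjusted p = 0.0433), where 232 of all 18625 probe sets were called. With arrays only centred on their medians 6 member probe sets were called at 24 h, among them Vegfc, Emcn and Dll4, each lower at 80 mg/kg. Under that scaling 214 of all 18625 probe sets were called at 24 h, against 26 in the main fit. By direction, 0.043% of all probe sets were called higher and 0.0107% lower at 6 h, 0.0752% and 0.0644% at 24 h, 0.0376% and 0.0161% at 168 h, 0.247% and 0.043% at 336 h, and 0.354% and 0.123% in the mean. Member calls were 1 of 63 probe sets at 6 h, where 0.0537% of all probe sets were called, 0 at 24 h (0.14%), 0 at 168 h (0.0537%), 1 at 336 h (0.29%) and 3 in the mean over times (0.478%). At an unadjusted p under 0.05 the members counted 8, 14, 5, 11 and 15 probe sets in the same order, with 6.65%, 11.1%, 5.44%, 6.97% and 9.54% of all probe sets past that level.

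As a list, the members had small median differences from vehicle on the quantile scale. The median difference of the 41 genes, 80 mg/kg minus vehicle, was 0.12 at 6 h, -0.17 at 24 h, -0.00 at 168 h and 0.10 at 336 h (log2), and 0.02 in the mean over times, where 21 genes had a positive difference and 20 a negative one. Over all 10557 named genes the medians were 0.01, -0.04, -0.00 and 0.00 at these times and -0.01 in the mean. The 24 h value depended on the scale: it was -0.36 with median centring, where all probe sets shifted by -0.17, -0.49 on the deposited signals, where they shifted by -0.30, and -0.05 with the probe sets of a gene averaged. Leaving out 1 array put the 6 h median between 0.03 (without vehicle replicate 6) and 0.16 (without vehicle replicate 3), the 336 h median between 0.06 (without vehicle replicate 6) and 0.12, the 168 h median between -0.02 and 0.04, and the mean over times between -0.01 and 0.04. The map of differences by gene and time shows the spread over genes, with 27 of 41 genes positive at 6 h, 11 at 24 h, 20 at 168 h and 28 at 336 h.

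**Figure D1:**
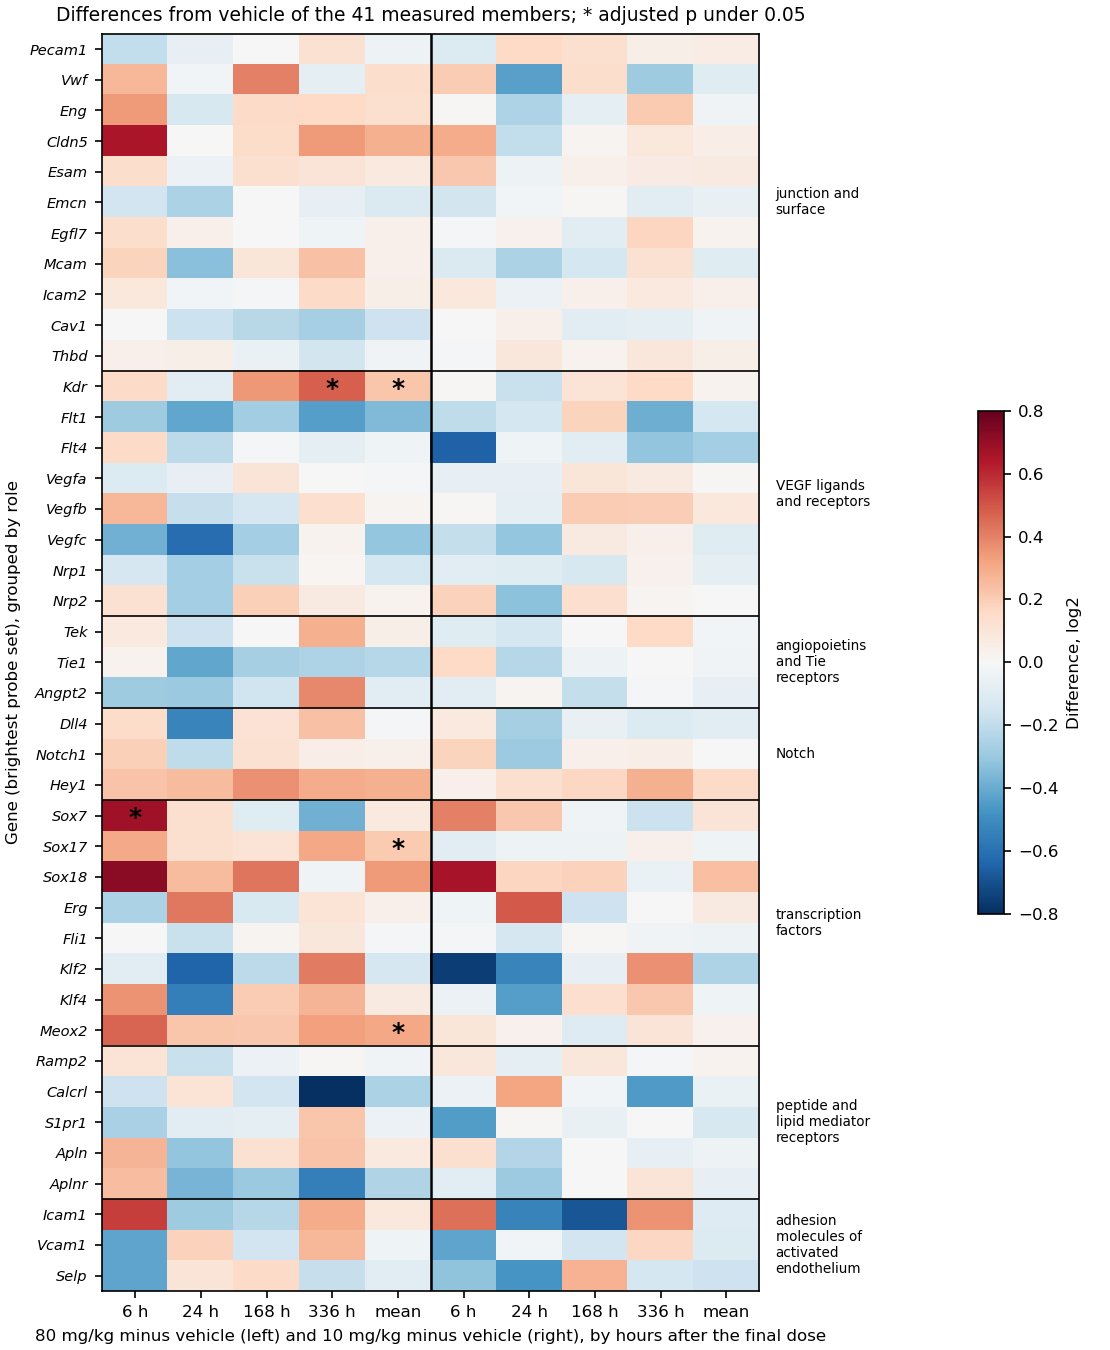
Differences in log2 signal from vehicle for the 41 measured members (rows, grouped by role) at each time and in the mean over times (columns), 80 mg/kg minus vehicle on the left and 10 mg/kg minus vehicle on the right; colours end at 0.8 in both directions. Asterisks mark the 5 calls, which are in the 80 mg/kg columns: Kdr at 336 h, Sox7 at 6 h and Kdr, Meox2 and Sox17 in the mean.

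Kdr, the main signalling receptor for VEGF in blood endothelium, rose at 80 mg/kg late after dosing. At 336 h its level was 10.19, 10.46, 10.47, 10.50 and 10.54 in the 80 mg/kg arrays, against 9.70, 9.90, 9.92, 10.10 and 10.13 in the vehicle arrays. The lowest treated array lay above the highest vehicle array. The difference was 0.48 (SE 0.09, 95% interval 0.29 to 0.67, adjusted p = 0.00401 by limma), a 1.39-fold higher signal. At 168 h the 6 arrays at 80 mg/kg ran from 10.23 through a median of 10.36 to 10.56, against 9.87, 9.96, 9.98, 10.09 and 10.22 with vehicle. These groups did not overlap either, although the difference of 0.35 missed the threshold (adjusted p = 0.189). At 6 and 24 h the differences were 0.15 and -0.08 and the groups overlapped. In the mean over times Kdr was 0.22 higher (SE 0.05, adjusted p = 0.00651). Whether its effect differed between the 4 times was tested with a moderated F test, which gave an adjusted p of 0.216.

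The array groups and atrial content bear on that mean. Clustering all arrays on their first 2 principal components into 3 clusters gave 8 combinations of time and cluster that held both 80 mg/kg and vehicle arrays. Kdr was higher at 80 mg/kg in 7 of them, from -0.08 to 0.48, each 80 mg/kg minus vehicle. Most of these combinations had a single array on 1 side, so counts over them are descriptions only. At 24 h, 2 arrays of 80 mg/kg lay in a cluster without a vehicle array of that time and are left out of them. All arrays of 336 h fell into 1 cluster, so the value there is a within-cluster value. Without the 9 arrays of high Myl7, none of which is from 168 or 336 h, the mean difference of Kdr was 0.18 (adjusted p = 0.172), and the difference at 336 h stayed at 0.48 (adjusted p = 0.00382). With the Myl7 level of each array as a covariate instead, the mean difference was 0.23 (adjusted p = 0.0117) and the call was kept. With arrays only centred on their medians the 336 h difference was 0.57 and the adjusted p 0.0616, and on the deposited scale 0.57 with an adjusted p of 0.99993.

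The other genes of the VEGF system gave no call. At 24 h all 8 measured genes of the system, Kdr included, were lower at 80 mg/kg (median -0.24), against 4 of 8 at 6 h and 5 of 8 at 168 h. Vegfa, the main ligand of Kdr, differed by -0.02 in the mean over times (95% interval -0.11 to 0.08). At 336 h Vegfa lay at 10.09, 10.11, 10.16, 10.28 and 10.42 at 80 mg/kg, against 10.04, 10.15, 10.17, 10.21 and 10.45 with vehicle, so the groups covered the same range while Kdr was apart. Vegfb, a ligand of Flt1 made in heart muscle, differed by 0.02 (-0.17 to 0.21), and at 336 h it lay at 10.84 to 11.06 at 80 mg/kg, against 10.29 to 11.09 with vehicle. Vegfc, the ligand of the lymphatic receptor Flt4, was the member with the lowest p at 24 h, at 6.55, 6.78, 6.97, 7.15 and 7.17 in the 80 mg/kg arrays, against 7.30 to 7.77 with a median of 7.49 in the 6 vehicle arrays. These groups did not overlap. The difference was -0.61 (adjusted p = 0.127; -0.76 with an adjusted p of 0.0254 under median centring), and in the mean over times -0.31 (adjusted p = 0.0854). Flt1, the receptor that binds VEGF with little signalling, differed by -0.35 in the mean (adjusted p = 0.171) on its brightest probe set, while its other 2 kept probe sets gave -0.30 and 0.14. Nrp1, a coreceptor, differed by -0.14 (adjusted p = 0.181), Nrp2 by 0.03 and Flt4 by -0.04.

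Among the transcription factors, Meox2 and Sox17 rose in the mean over times. Meox2 lay at 8.08, 8.19, 8.23, 8.27 and 8.38 at 80 mg/kg at 6 h, against 7.33, 7.85, 7.91 and 7.98 with vehicle. Those groups did not overlap, whereas they overlapped at 24, 168 and 336 h. The differences were 0.46, 0.22, 0.22 and 0.33 at 6, 24, 168 and 336 h, and the mean was 0.31 (SE 0.06, 95% interval 0.18 to 0.43, adjusted p = 0.00505), a 1.24-fold higher signal. None of the 4 single times was called. Within combinations of time and array cluster Meox2 was higher in 7 of 8. Without the arrays of high Myl7 the mean was 0.25 (adjusted p = 0.118), with Myl7 as a covariate 0.31 (adjusted p = 0.00932), and with median centring it was 0.28 (adjusted p = 0.0776).

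Sox17, a SoxF factor of arterial endothelium, was higher at 80 mg/kg by 0.30, 0.13, 0.11 and 0.31 at the 4 times. At 6 h its arrays read 8.29, 8.43, 8.50, 8.56 and 8.67 at 80 mg/kg, against 8.01, 8.07, 8.29 and 8.37 with vehicle. The mean difference was 0.21 (SE 0.05, adjusted p = 0.0374), close to the threshold, and it passed in 4 of 11 other settings. With Myl7 as a covariate it was 0.20 (adjusted p = 0.0915) and did not pass. It was positive in 8 of 8 combinations of time and cluster, from 0.02 to 0.49. At 336 h 1 array stood above the other 4 at 80 mg/kg, which read 7.97, 8.01, 8.06 and 8.21, and the remaining one 8.73, against a lowest value of 7.72 and a median of 7.97 with vehicle.

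Sox7, another SoxF factor, rose at 6 h and was not called at later times. At 6 h its level was 9.58, 9.68, 9.71, 9.92 and 10.23 at 80 mg/kg, against 9.04, 9.05, 9.25 and 9.25 with vehicle, and the groups did not overlap. The difference was 0.68 (SE 0.15, 95% interval 0.38 to 0.97, adjusted p = 0.0486). It passed the threshold in only 1 of the 9 fits that left out 1 array, with adjusted p up to 0.229, and with the arrays of high Myl7 left out the difference was 0.65 (adjusted p = 0.679), against 0.69 (adjusted p = 0.0474) with Myl7 as a covariate. At 336 h the difference was -0.38 (adjusted p = 0.432), with arrays at 8.62, 8.71, 9.08, 9.28 and 9.48 at 80 mg/kg, against 9.24, 9.37, 9.38, 9.41 and 9.69 with vehicle. The test of unequal effects over the 4 times gave an adjusted p of 0.0888. Across combinations of time and array cluster Sox7 was higher at 80 mg/kg in 4 of 8, from -0.38 to 0.90. Sox18, the third SoxF factor, lay at 8.71 to 9.39 (median 8.99) at 80 mg/kg at 6 h, against 7.99 to 8.78 (median 8.23) with vehicle. It differed by 0.72 at 6 h (adjusted p = 0.191), by 0.43 at 168 h (adjusted p = 0.794; 8.84 to 9.56, median 9.26, at 80 mg/kg against 8.36 to 9.42, median 8.85, with vehicle) and by 0.34 in the mean (adjusted p = 0.053).

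**Figure D2:**
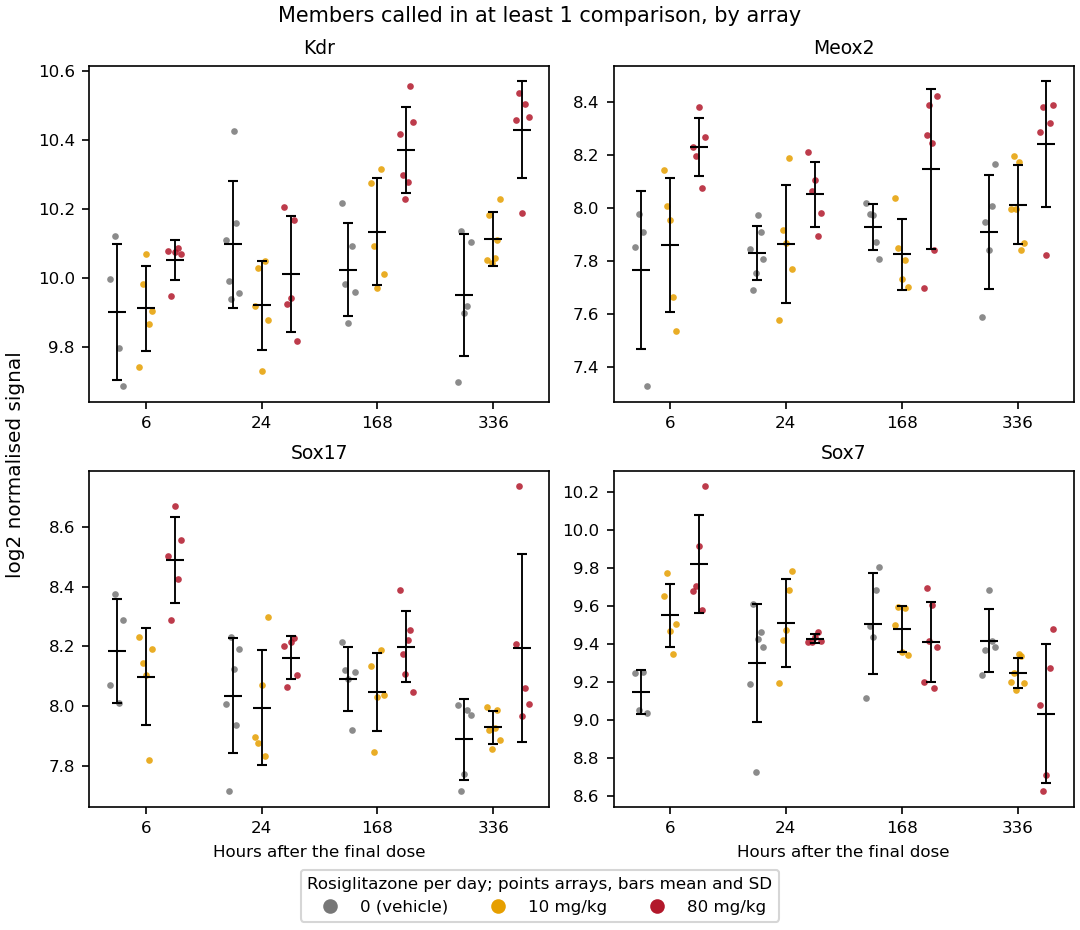
Log2 normalised signal (vertical axes, which do not start at 0) of Kdr, Meox2, Sox17 and Sox7 by hours after the final dose, for vehicle, 10 mg/kg and 80 mg/kg from left to right; points are arrays and bars give mean and SD. Kdr at 80 mg/kg lies above vehicle at 168 and 336 h without overlap, Meox2 does so at 6 h, and Sox7 at 6 h.

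The remaining factors did not pass. Klf2, which responds to blood flow, differed by -0.64 at 24 h (adjusted p = 0.331) and 0.42 at 336 h (adjusted p = 0.837), and Klf4, another flow-responsive factor, by -0.55 at 24 h (adjusted p = 0.3). Their means over times were -0.13 and 0.07. Erg and Fli1, ETS factors of endothelial identity, differed by 0.04 and -0.02 in the mean. Of the 8 measured factors, 2 rose in the mean over times, 0 fell and 6 did not pass.

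None of the 11 measured genes of junctions and the cell surface passed at any time in the main fit. Cldn5, Emcn and Cav1 each passed in another setting, given further on. The median of the 11 in the mean over times was 0.04 (7 positive, 4 negative). That mean joins unlike times: 9 of 11 were positive at 6 h (median 0.14) and 2 of 11 at 24 h (median -0.05). Pecam1, the adhesion molecule that marks endothelium generally, lay at 9.03, 9.04, 9.08, 9.15 and 9.25 at 80 mg/kg at 336 h, against 8.73, 8.76, 9.13, 9.15 and 9.17 with vehicle. Its arrays covered overlapping ranges at the 4 times, and the mean difference was -0.04 (95% interval -0.16 to 0.08), a fold of 0.974. Esam and Icam2, adhesion molecules of endothelial junctions, differed by 0.08 (-0.04 to 0.20) and 0.05 (-0.06 to 0.16), and Egfl7, a secreted endothelial protein, by 0.04 (-0.09 to 0.17). Eng, a TGF-beta coreceptor, differed by 0.13, Mcam by 0.04, Thbd, the thrombin receptor thrombomodulin, by -0.03 and Vwf, the clotting factor carrier, by 0.14 with a wide interval of -0.16 to 0.45. At 336 h Vwf ran from 8.29 to 9.32 at 80 mg/kg, against 8.42 to 9.15 with vehicle.

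Cldn5, Emcn and Cav1 came closest to a call in that group. Cldn5, a tight junction protein, lay at 8.14, 8.24, 8.68, 8.72 and 8.90 at 80 mg/kg at 6 h, against 7.69, 7.77, 7.94 and 8.13 with vehicle. The groups just failed to overlap, with a difference of 0.65 (adjusted p = 0.286) and a mean over times of 0.28 (adjusted p = 0.14). With the array cluster as a block in limma, Cldn5 passed at 6 h (adjusted p = 0.0427). Emcn, a surface sialomucin of capillaries and veins, read 9.14, 9.18, 9.20, 9.26 and 9.29 at 80 mg/kg at 24 h, against 9.40 to 9.54 with a median of 9.46 in 6 vehicle arrays. The difference was -0.25 (adjusted p = 0.141), and -0.48 under median centring (adjusted p = 0.0299). Cav1, the coat protein of caveolae, read 11.46, 11.55, 11.55, 11.64 and 11.64 at 80 mg/kg at 336 h, against 11.81, 11.82, 11.83, 11.85 and 11.88 with vehicle, again without overlap. At 168 h it lay at 11.62 to 11.89 (median 11.78) at 80 mg/kg, against 11.87 to 12.08 (median 12.05) with vehicle, a difference of -0.22 (adjusted p = 0.766). Its difference at 336 h was -0.27 (adjusted p = 0.314), and the mean over times -0.16 (adjusted p = 0.0687). With array weights in limma, Cav1 passed at 336 h (adjusted p = 0.0433). Caveolae are also common in smooth muscle and fat, so Cav1 is not a marker of endothelium alone.

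Counting members whose arrays did not overlap with vehicle gave 4 of 41 genes at 6 h (Sox7, Cldn5 and Meox2 above, Nrp1 below), where 1.68% of all probe sets did not overlap. At 24 h there were 2 (Emcn and Vegfc below, 1.08% of all probe sets), at 168 h 1 (Kdr above, 0.612%) and at 336 h 2 (Kdr above, Cav1 below, 2.52%).

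The angiopoietin and Tie genes, the Notch genes, the peptide and lipid mediator receptors and the adhesion molecules of activated endothelium held no call. Tek, the angiopoietin receptor, differed by 0.05 in the mean and by 0.28 at 336 h (adjusted p = 0.354). Tie1 lay at 7.56 to 8.96 (median 8.52) at 80 mg/kg at 24 h, against 8.65 to 9.13 (median 8.76) with vehicle, and in the mean over times it differed by -0.23 (95% interval -0.41 to -0.04, adjusted p = 0.386), and Angpt2, the ligand released by activated endothelium, by -0.09. At 336 h Angpt2 ran from 6.36 to 7.17 at 80 mg/kg, against 6.05 to 6.89 with vehicle. Hey1, a Notch target, was higher by 0.23, 0.25, 0.37 and 0.29 at the 4 times and by 0.28 in the mean (adjusted p = 0.0813). Dll4, the Notch ligand of tip cells, lay at 6.60 to 7.49 at 80 mg/kg at 24 h, against 7.34 to 7.84 with vehicle, and differed by -0.53 at 24 h (adjusted p = 0.228; -0.70 with an adjusted p of 0.0426 under median centring) and -0.01 in the mean, and Notch1 by 0.04.

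Apln and Aplnr, the apelin peptide of sprouting endothelium and its receptor, had mean differences of 0.08 and -0.24 (adjusted p = 0.709 and 0.373). Apln at 24 h lay at 7.76 to 8.20 at 80 mg/kg, against 8.02 to 8.49 with vehicle. Aplnr at 336 h read 7.63, 7.64, 8.15, 8.37 and 8.43 at 80 mg/kg, against 8.29, 8.50, 8.57, 8.64 and 8.92 with vehicle, and its dimmer probe set gave a mean difference of 0.09. Calcrl and Ramp2, which form the adrenomedullin receptor, differed by -0.25 and -0.03, and S1pr1, the sphingosine 1-phosphate receptor, by -0.05. Icam1, Vcam1 and Selp, which catch leukocytes on inflamed endothelium, differed by 0.08, -0.03 and -0.09. Icam1 varied widely between arrays, at 4.28 to 6.56 at 80 mg/kg at 6 h, against 3.46 to 6.21 with vehicle, and its 95% interval was -0.41 to 0.57. Vcam1 at 6 h lay at 6.13 to 6.63 at 80 mg/kg, against 6.59 to 6.94 with vehicle.

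The lipid genes of capillaries, a list of 14 genes of which 12 were measured, held some much larger differences in the same arrays. In the mean over times 6 rose, 1 fell and 5 did not pass at 80 mg/kg. Those that rose were Rbp7, Gpihbp1, Fabp4, Mgll, Fabp5 and Cd36, and Aqp1 fell. The list was chosen with its response known, so it is no independent evidence of a direction. Rbp7, a retinol-binding protein of capillary endothelium, read 11.10, 11.73, 11.83, 12.04 and 12.52 at 80 mg/kg at 336 h, against 7.24, 7.75, 7.81, 7.93 and 7.96 with vehicle. Its mean difference over times was 3.44 (SE 0.20, adjusted p = 6.33e-19), a 10.8-fold higher signal. Gpihbp1, the capillary protein that carries lipoprotein lipase to the vessel surface, read 10.20, 10.27, 10.31, 10.57 and 11.06 at 80 mg/kg at 336 h, against 7.43, 7.48, 7.72, 8.29 and 8.37 with vehicle. Its mean difference was 2.05 (SE 0.13, adjusted p = 2.55e-17), a 4.15-fold higher signal.

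Fabp4, a fatty acid binding protein, lay at 12.60 to 13.24 at 80 mg/kg at 336 h, against 11.81 to 11.91 with vehicle, and rose by 0.93 in the mean (adjusted p = 3.81e-15). Cd36, a fatty acid transporter also abundant in heart muscle, rose by 0.42 (adjusted p = 0.00868). Aqp1, a water channel that is also a general marker of heart microvessels, moved the other way and later. It read 10.59, 10.64, 10.73, 10.99 and 11.01 at 80 mg/kg at 6 h, against 10.63, 10.98, 10.99 and 11.19 with vehicle, an overlap. At 336 h it read 9.41, 9.50, 9.77, 9.81 and 9.86 at 80 mg/kg, against 11.30, 11.32, 11.32, 11.39 and 11.50 with vehicle. Its differences were -0.15 at 6 h (adjusted p = 0.882), -0.81 at 24 h, -1.25 at 168 h and -1.70 at 336 h (adjusted p = 2.92e-14). Lpl, the lipase made by muscle cells, differed by -0.06 (95% interval -0.12 to 0.01).

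**Figure D3:**
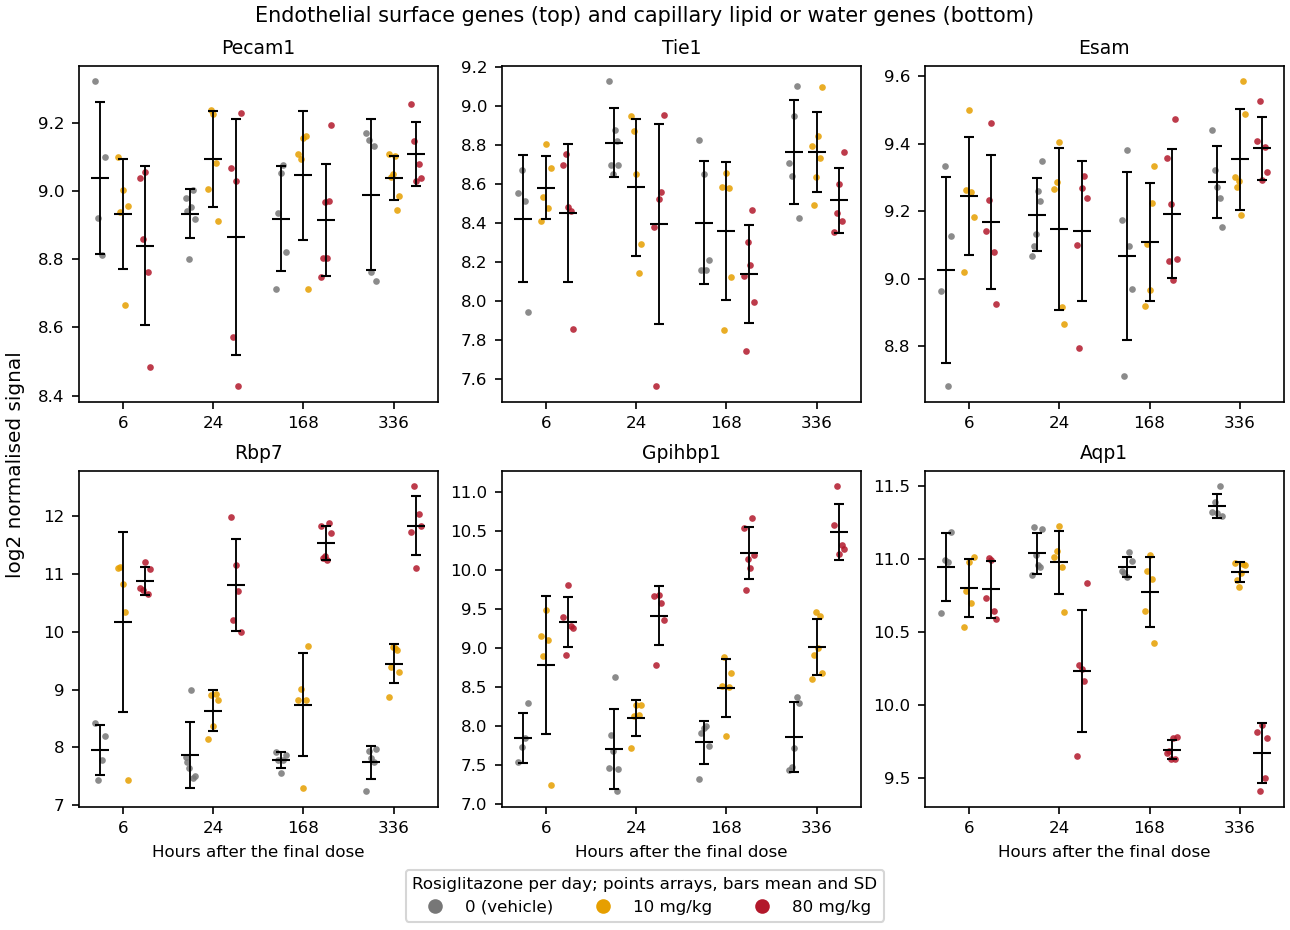
Log2 normalised signal (vertical axes, which do not start at 0) by hours after the final dose for vehicle, 10 mg/kg and 80 mg/kg from left to right, with arrays as points and mean and SD as bars. Pecam1, Tie1 and Esam (top) overlap between doses, while Rbp7 and Gpihbp1 at 80 mg/kg lie above vehicle and Aqp1 lies below it at 336 h.

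Placed side by side at 80 mg/kg, the mean differences of the 41 members lay between -0.35 (Flt1) and 0.34 (Sox18). The 7 lipid genes that passed the test lay outside that range, as did Slc27a4 (0.42, adjusted p = 0.55), which did not pass. The plot of mean differences with intervals shows this on 1 scale.

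**Figure D4:**
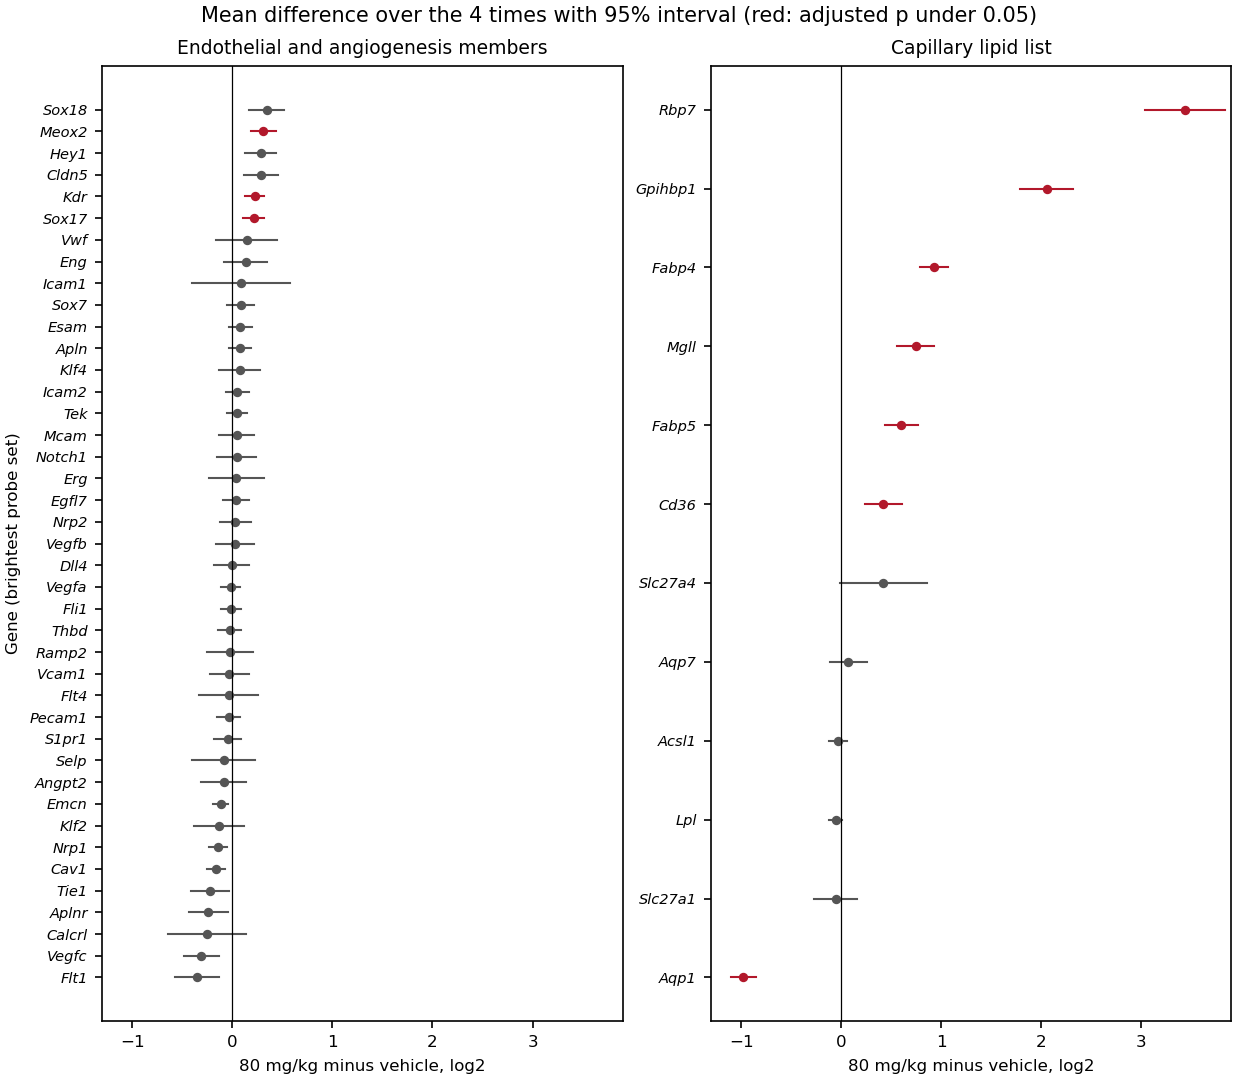
Mean difference over the 4 times in log2 signal, 80 mg/kg minus vehicle, with 95% intervals (horizontal axes) for the 41 members (left) and the 12 measured genes of the capillary lipid list (right); red marks adjusted p under 0.05. Members lie between -0.35 and 0.34, while Rbp7 lies at 3.44, Gpihbp1 at 2.05 and Aqp1 at -0.98.

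Of 62 measured genes from a wider list of 74 endothelial and angiogenesis genes, 2 rose and 1 fell in the mean over times at 80 mg/kg. Nid1, a basement membrane protein, rose by 0.66 at 336 h (adjusted p = 0.0193) and by 0.31 in the mean (adjusted p = 0.0301). At 336 h it read 10.64, 11.27, 11.33, 11.40 and 11.45 at 80 mg/kg, against 10.36, 10.37, 10.59, 10.64 and 10.81 with vehicle. Plat, the tissue plasminogen activator, rose by 0.30 in the mean (adjusted p = 0.00857). The gene that fell was Aqp1. The median of the list was -0.00.

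At 10 mg/kg no member was called at any time or in the mean by limma, where 0% of all probe sets were called at each single time and 0.0107% in the mean. At an unadjusted p under 0.05 the members counted 7, 9, 0 and 0 of 63 probe sets at 6, 24, 168 and 336 h and 2 in the mean, with 6.42%, 5.84%, 3.86%, 3.63% and 4.77% of all probe sets past that level. The median differences of the 41 genes, 10 mg/kg minus vehicle, were -0.01, -0.08, 0.00 and 0.04, and -0.03 in the mean. Groups did not overlap for 3 of 41 genes at 6 h (1.15% of all probe sets) and for none at the later times (0.43%, 0.403% and 0.666%). At 6 h Sox7 lay above vehicle, with 9.35, 9.47, 9.51, 9.65 and 9.78 at 10 mg/kg against 9.04, 9.05, 9.25 and 9.25, and a difference of 0.40 (adjusted p = 0.653). S1pr1 lay below it, with 9.81, 9.94, 10.08, 10.29 and 10.38 at 10 mg/kg against 10.40, 10.43, 10.55 and 10.81 with vehicle, a difference of -0.45. Klf2 differed by -0.75 (adjusted p = 0.653), also without overlap, with 9.10 to 9.79 at 10 mg/kg against 9.99 to 10.27 with vehicle. Sox18 had the lowest p at 6 h, at 8.72 to 9.22 at 10 mg/kg against 7.99 to 8.78 with vehicle, a difference of 0.66 (adjusted p = 0.501).

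The lowest p at 24 h for 10 mg/kg came from dimmer probe sets of Thbd and Fli1, each with an adjusted p of 0.848. Thbd lay at 5.35 to 6.82 at 10 mg/kg against 4.63 to 6.29 with vehicle on its dimmest probe set (a difference of 0.63), and at 6.95 to 7.76 against 6.28 to 7.35 on the next (0.41). Fli1 lay at 6.30 to 7.23 at 10 mg/kg against 4.16 to 6.19 with vehicle (0.92), apart on this probe set but not on the brightest one, which stands for the gene. At 168 h the lowest p, with adjusted values of 0.9997, were those of a dimmer Dll4 probe set, at 7.14 to 7.84 at 10 mg/kg against 6.83 to 7.49 with vehicle, the same Fli1 probe set, at 4.11 to 6.47 against 5.68 to 6.88, and Icam1, at 2.84 to 6.30 against 5.36 to 6.43. These 3 pairs of groups overlapped. At 336 h they were those of Hey1, at 7.59 to 8.35 (median 8.11) at 10 mg/kg against 7.62 to 8.10 (median 7.72) with vehicle, a difference of 0.29, Flt1, at 6.93 to 7.48 (median 7.18) against a median of 7.56 and a highest value of 8.06, a difference of -0.39, and Kdr, at 10.04 to 10.23 against 9.70 to 10.13, a difference of 0.16. Those groups overlapped as well, with adjusted p of 0.9997.

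Both doses were set against the same vehicle arrays, so their differences are given side by side only. For 80 and 10 mg/kg the mean differences from vehicle were 0.22 and 0.03 for Kdr, 0.31 and 0.03 for Meox2, 0.21 and -0.03 for Sox17, 0.34 and 0.24 for Sox18, and 0.08 and 0.10 for Sox7. The lipid genes Rbp7 and Gpihbp1 rose at 10 mg/kg as well, by 1.41 (adjusted p = 6.85e-05) and 0.79 (adjusted p = 0.00225) in the mean. Set directly against each other, 80 and 10 mg/kg gave no call for a member at any time, where 0%, 0.0107%, 0.0376% and 0.102% of all probe sets were called at 6, 24, 168 and 336 h. At an unadjusted p under 0.05 the members counted 5, 2, 6 and 9 of 63 probe sets, with 3.68%, 3.74%, 4.73% and 3.59% of all probe sets past that level. Groups of the 2 doses did not overlap for Sox17 at 6 h (80 mg/kg above, 0.569% of all probe sets) and Emcn at 24 h (80 mg/kg below, 0.424%), and for no member at 168 h (0.365%) or 336 h (0.773%). Kdr differed by 0.32 at 336 h (adjusted p = 0.337), with 10.19 to 10.54 in 5 arrays at 80 mg/kg against 10.04 to 10.23 in 6 arrays at 10 mg/kg.

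With vehicle alone, members were called different between the sampling times, at an adjusted p under 0.05, no more often than probe sets in general. A moderated F test over the 4 times called 4 of 63 probe sets (8.05% of all probe sets were called), 1 each of Nrp1, Sox18, Thbd and S1pr1. At an unadjusted p under 0.05 the members counted 18 of 63. Nrp1 averaged 10.63, 10.58, 10.60 and 10.12 with vehicle at 6, 24, 168 and 336 h (adjusted p = 0.000695). Sox18 averaged 8.31, 8.77, 8.83 and 9.29 (adjusted p = 0.00477), and S1pr1 10.55, 10.16, 10.10 and 9.94 (adjusted p = 0.0294). For Thbd it was the dimmest of 3 kept probe sets, at 5.49, 5.63, 5.90 and 6.82 (adjusted p = 0.00505). All arrays of 336 h fell into 1 array cluster, so a shift at 336 h cannot be told apart from a difference between sets of arrays. The same test of the drug effect called no member at 80 mg/kg (0.0215% of all probe sets) or 10 mg/kg (0%), with 9 and 3 of 63 member probe sets at an unadjusted p under 0.05. For these F tests the share of all probe sets past the unadjusted level was not counted, so the unadjusted counts are descriptions only.

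The members did not vary as 1 block between arrays. Over the 62 arrays, after centring on group means, the 820 pairs of members had a median Pearson correlation of 0.10, against 0.01 for 1056 genes taken at even steps of brightness. These are descriptions, since the values of an array share its RNA quality, tissue content and scale. Set against the mean of 4 general markers (Pecam1, Kdr, Tie1 and Esam), Eng correlated at 0.74, Ramp2 at 0.60 and Vwf at 0.58, while Sox7 stood at -0.26 and Nrp1 at -0.40. The 3 single-gene probe sets most like that mean, members of it aside, belonged to Gna12 (0.83), Col4a1 (0.83) and Myh9 (0.82), while among the called lipid genes Mgll stood at 0.58, Fabp5 at 0.23, Aqp1 at 0.20, Gpihbp1 at 0.11, Fabp4 at 0.07, Rbp7 at 0.04 and Cd36 at -0.47. No marker of another cell type was called at 80 mg/kg in the mean over times among 12 pericyte and smooth muscle, 11 fibroblast, 5 lymphatic, 2 endocardial, 10 cardiomyocyte, 4 atrial and 7 leukocyte genes measured. Only 0.478% of all probe sets were called there, so having no call among so few genes does not show that other cell types were unchanged. Adipocyte, platelet and red blood cell markers, with 2, 2 and 3 genes measured, are not part of that count, although the endocardial list, also with 2, is. The count therefore says nothing about those left out. The 4 atrial markers had a median difference of 1.02, all 4 positive. The members' calls without the arrays of high Myl7 and with Myl7 as a covariate are given with each gene.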

How the data were processed

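Per the labels, total RNA from RNAlater-preserved cardiac muscle was labelled with biotin and hybridised to 1 array a sample. The authors deposited linear intensity values made with GCOS and MAS5, per the submitters' processing notes, which name no version. Of 31099 probe sets, 57 controls were left out. Because array medians differed, log2 signals were quantile normalized, and probe sets at or above the 40th percentile of mean signal were kept (18625). Differences come from limma 3.58.1 in R 4.3.3, with the means of 12 dose-by-time groups in 1 fit, moderated tests on 50 residual degrees of freedom, two-sided, and Benjamini-Hochberg adjustment over all kept probe sets, called at 0.05. The number of arrays limits precision: the median residual SD was 0.297. The fit was tested on simulated data, with noise drawn independently for each probe set. Shifts of 0.5 and 0.3 at 336 h were called in 28% and 4% of 50 probe sets each. In the mean over times they were called in 80% and 56%. The F test of unequal effects called 14% of shifts of 0.5 at 336 h alone. A difference of this size that did not pass is therefore not shown to be absent.

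The brightest kept probe set stands for a gene. Members and lists were chosen with earlier results of these data known. Array values or ranges are given for members called in a comparison, the 3 with the lowest p in each, and 16 listed markers whatever their p, of which Cdh5, Plvap and Tcf15 had no kept probe set. Rbp7, Gpihbp1, Fabp4, Cd36, Lpl and Aqp1, and called genes of the wider endothelial list, stand beside them. Names came from the platform annotation, in which 20832 probe sets have 1 gene. Replicate numbers of the titles were treated as names, not as pairs. Of 34 same-numbered pairs of groups, 10 had a correlation of deviations over 0.1, and the 34 ran from -0.26 to 0.34. Pairs of unlike number were not set beside them, so whether the numbers mark a shared source is not settled. No value columns of other series were in the table (0).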

Additional observations from a re-analysis of the deposited data

Results flagged for a closer look

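An array stood apart from the rest of its group in 9 of 166 sets of group values examined for named members, by Dixon's criterion at the 95% level, which chance passes in about 1 in 20 sets. At 80 mg/kg at 336 h replicate 3 was low for both Kdr (10.19, the others 10.46 to 10.54) and Meox2 (7.82, the others 8.29 to 8.39). Kdr at 80 mg/kg at 6 h was low in replicate 2 (9.95), and Icam1 at 80 mg/kg at 168 h was low in replicate 4 (3.34). A dimmer probe set of Fli1 stood apart at 24 h in replicate 2 at 10 mg/kg (7.23) and in replicate 5 with vehicle (4.16). The dimmest probe set of Thbd stood apart at 168 h in replicate 2 at 10 mg/kg (6.78) and in replicate 3 with vehicle (6.56), and Vegfb in the same vehicle array (11.0).

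In 5 cases all treated arrays lay on 1 side of the vehicle mean at 1 time and on the other side at another. Apln at 80 mg/kg differed from vehicle by 0.27 at 6 h and -0.32 at 24 h, and the moderated F test of its effect over the 4 times gave an adjusted p of 0.324. Klf2 at 80 mg/kg differed by -0.64 at 24 h and 0.42 at 336 h (adjusted p = 0.646). At 10 mg/kg Klf2 differed by -0.75 at 6 h, -0.53 at 24 h and 0.37 at 336 h, Kdr by -0.18 at 24 h and 0.16 at 336 h, and Sox7 by 0.40 at 6 h and -0.17 at 336 h, each with an adjusted p of 0.984. These F tests cover the 4 times together, and the pairs of times were not tested alone.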

How the results depend on the processing

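Scaling mattered most. On the signals as deposited the median of all tested probe sets shifted by 0.37, -0.30 and -0.21 at 80 mg/kg at 6, 24 and 168 h and by -0.36, -0.25, 0.14 and -0.12 at 10 mg/kg at 24, 168 and 336 h and in the mean. The members' medians moved with it, to 0.49, -0.49 and -0.21 at 80 mg/kg and -0.50 and -0.25 at 10 mg/kg at 24 and 168 h. With median centring, under which all probe sets shifted by -0.17 and -0.13 at 24 h, the members' medians at 24 h were -0.36 at 80 mg/kg and -0.27 at 10 mg/kg. There 6 member probe sets were called at 24 h at 80 mg/kg, Vegfc, Emcn and Dll4 among them, lower, and 214 of all probe sets were called. Under both scalings 0 member probe sets were called at 336 h and 0 in the mean over times, and on the deposited signals 0 at 6 h.

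The 6 h call of 1 probe set (Sox7) became 0 with no filter, array weights, the arrays of that time alone, the arrays of high Myl7 left out, the array of high actin 3′ to 5′ difference left out, or the 3 arrays over 1.5 in that difference left out, an alternative chosen after seeing the data. It became 2 with the array cluster as a block (Sox7 and Cldn5), where 16 of all probe sets were called. Array weights gave 4 calls at 336 h, with Cav1 lower among them, where 232 of all probe sets were called. They gave 6 in the mean, where 117 of all were called. In the mean the 60th percentile filter gave 5 (113 of all), leaving out the arrays of high Myl7 gave 1 (53 of all), and Myl7 as a covariate gave 2 (72 of all). Leaving out 1 array at a time gave 0 to 1 calls at 6 h and 2 to 5 in the mean. Kdr at 336 h was called in 10 of 10 such fits and Kdr and Meox2 in the mean in 41 of 41. Sox17 in the mean was called in 24 of 41 and in 4 of 11 other settings. Of the genes set beside the members, Nid1 in the mean lost its call in 5 of 11 settings, and Cd36 and Plat each in 3. The cause of these changes was not tested.

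With the replicate number as a block, Sox7 at 6 h differed by 0.63 (adjusted p = 0.0661), so 0 members were called there, and no other call was lost.

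Mean differences near 0 changed sign: Vegfb to -0.0060 (deposited), -0.0038 (median centring) and -0.030 (cluster block), Icam1 to -0.055 (without high Myl7), and, leaving out 1 array, Vegfa (-0.035 to 0.0056), Vegfb (-0.013 to 0.061), Icam1 (-0.051 to 0.204) and Vcam1 (-0.069 to 0.010).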
